A study of Mus musculus with 10 samples.

Results

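Messenger RNA of 5 genes, Lrrc39, Lrrc2, Tmem182, Lrrc10 and Trmt13, was followed in CD31+ cells from hearts of mice on a control or a ketogenic diet. They are 5 of the 46983 genes in the count table and were looked up by their Ensembl identifiers. The choice used their difference between these diets, so that difference is given below as a description, with a fold change and its standard error but no test. Trmt13 is included because its gene overlaps that of Lrrc39 on the other strand. All mice were wild type C57BL/6J males, littermates assigned to a diet at 8 weeks of age and fed for 14 days. Fat made up 11.6% of the energy in the control diet and 89.5% in the ketogenic diet, with 5 mice on each. Hearts were digested with enzymes, cells were captured with magnetic beads carrying an antibody to CD31 (Pecam1), and 1 library per mouse was made with the SMART-Seq v4 kit, which amplifies full-length cDNA and does not mark the strand.

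Lrrc39, Lrrc2 and Lrrc10 encode proteins with leucine-rich repeats, stretches that fold into a curved surface and usually bind other proteins. Lrrc39, also called myomasp, sits at the M-band, the structure that holds the thick filaments together in the middle of the sarcomere. Lrrc2 has been placed at mitochondria of the heart, and Lrrc10 is a protein of heart muscle cells found at the Z-disc and the T-tubule. Tmem182 is a membrane protein of muscle and fat. Trmt13 methylates transfer RNA. All but Trmt13 are known as genes of striated muscle, whereas the cells captured here were labelled as endothelial.

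Lrrc39 (ENSMUSG00000027961.7) lies at chr3:116562973-116583134 on the forward strand of GRCm38, and Lrrc2 (ENSMUSG00000032495.8) at chr9:110951545-110984066, also forward. Tmem182 (ENSMUSG00000079588.3) lies at chr1:40805601-40856887 and Lrrc10 (ENSMUSG00000060187.4) at chr10:117045341-117046768, both forward. Trmt13 (ENSMUSG00000033439.12) lies at chr3:116581093-116614587 on the reverse strand. The bases upstream of the 4 muscle genes are printed so that the promoters of genes with and without a difference between the diets can be seen side by side. They are the 250 bases before the RefSeq start on GRCm38.p6, 5′ to 3′ on the forward strand, with matches to any of the searched motifs in capitals. The RefSeq start of Lrrc39 lies slightly inside the gene as GENCODE draws it. Lrrc39 is chr3:116562733-116562982, Lrrc2 chr9:110951295-110951544, Tmem182 chr1:40805351-40805600 and Lrrc10 chr10:117045091-117045340.
Lrrc39: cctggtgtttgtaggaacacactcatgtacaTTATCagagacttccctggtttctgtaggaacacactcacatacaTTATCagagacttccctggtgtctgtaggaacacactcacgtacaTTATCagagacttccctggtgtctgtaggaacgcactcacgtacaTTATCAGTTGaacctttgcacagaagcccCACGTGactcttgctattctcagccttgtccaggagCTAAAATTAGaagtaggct
Lrrc2: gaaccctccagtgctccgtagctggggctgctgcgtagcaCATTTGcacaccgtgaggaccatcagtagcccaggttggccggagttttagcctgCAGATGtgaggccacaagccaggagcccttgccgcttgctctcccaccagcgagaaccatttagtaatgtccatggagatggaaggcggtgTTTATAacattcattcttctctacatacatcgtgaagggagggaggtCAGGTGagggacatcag
Tmem182: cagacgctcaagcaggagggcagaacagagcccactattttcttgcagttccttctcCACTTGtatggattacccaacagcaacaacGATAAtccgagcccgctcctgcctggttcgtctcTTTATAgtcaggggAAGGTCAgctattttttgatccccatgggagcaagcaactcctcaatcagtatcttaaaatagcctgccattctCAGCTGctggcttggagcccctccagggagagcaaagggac
Lrrc10: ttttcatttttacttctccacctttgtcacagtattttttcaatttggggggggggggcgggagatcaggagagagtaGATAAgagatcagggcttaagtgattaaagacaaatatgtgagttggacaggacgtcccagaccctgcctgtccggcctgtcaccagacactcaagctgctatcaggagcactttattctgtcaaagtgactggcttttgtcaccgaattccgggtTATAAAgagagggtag

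The motifs, searched on both strands, were the MEF2 site, the CArG box bound by Srf, the E-box CANNTG, the TATA box TATAAA, the GATA motif GATAA, the M-CAT motif CATTCC bound by Tead proteins, the estrogen-related receptor half-site AAGGTCA and the direct repeat DR1 bound by PPAR. A MEF2 site was found upstream of Lrrc39, 19 to 10 bases before the start, and upstream of none of the other 3 genes. Of 32851 promoter windows of the same length, 2.92% held one. The Lrrc39 window is built of repeats: shifted by 45 bases, 69.3% of its letters matched themselves, and 0.119% of all windows reached a higher value for a shift of 20 to 100 bases. Each repeat carried the GATA motif, which gives 4 matches, and the one nearest the start shares a base with an E-box. The Tmem182 window was the only one of the 4 with AAGGTCA, which 4.08% of all windows held. E-boxes numbered 3 for Lrrc2, 2 for Lrrc39, 2 for Tmem182 and none for Lrrc10, against 66.2% of all windows with at least 1. TATAAA stood 16 to 11 bases before the start of Lrrc10, on the strand of the gene. For Lrrc2 (64 to 59 bases before the start) and Tmem182 (129 to 124 bases) the match was on the opposite strand and is printed as TTTATA. With both strands searched, 12.4% of all windows held a match. GATAA was also present for Tmem182 and Lrrc10 (22.6% of all windows). None of the 4 windows held a CArG box (1.47%), CATTCC (12.6%) or DR1 repeat (0.0335%). These are matches of letters, and no binding was measured.

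The libraries held 10885154 to 12710861 reads on genes. Levels are given as CPM, the reads on a gene scaled to the TMM-normalised library size of that mouse, and as RPKM, which also divides by the exon length in kilobases. Endothelial markers were abundant. The 12 listed summed to 6120 to 6570 CPM on the control diet and 5890 to 6470 CPM on the ketogenic diet. Genes of other heart cells were also present, with 2430 to 2710 CPM over 8 mural cell markers and 630 to 993 CPM over 12 cardiomyocyte markers. The 6 adipocyte markers together stayed at or below 1.89 CPM. In edgeR's quasi-likelihood test, 15949 genes had enough reads. A gene was called where its Benjamini-Hochberg adjusted p was under 0.05, which held for 129 genes that rose on the ketogenic diet (0.809%) and 84 that fell (0.527%). DESeq2 called 5.3% and limma on log2(RPKM + 1) 1.52%. All 5 genes followed here passed the filter on low counts.

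On the ketogenic diet Lrrc39 was 2.24-fold, Lrrc2 1.95-fold and Tmem182 1.87-fold as high as on the control diet, with all 5 ketogenic mice above all 5 control mice for each. Lrrc10 had the same mean on both diets, and Trmt13 was somewhat lower with overlapping groups. Among all 15949 tested genes, 2.4% had every ketogenic mouse above every control mouse and 1.34% were called. These backgrounds are printed for scale, and nothing is read from them, because the genes were chosen on this difference.

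Lrrc39 measured 8.17, 8.52, 8.01, 8.42 and 7.87 CPM in control mice 1 to 5 and 16.9, 15.0, 20.3, 21.8 and 17.6 CPM in ketogenic mice 1 to 5. The lowest ketogenic mouse, number 2, stood well above the highest control mouse. The means were 8.20 ± 0.274 CPM (SD, n = 5) and 18.3 ± 2.73 CPM (SD, n = 5), a log2 fold change of 1.16 with a standard error of 0.113. These values rest on 88 to 104 reads per control mouse and 167 to 261 reads per ketogenic mouse. The control mice differed from each other by a coefficient of variation of 3.34%, less than the 10.4% that counting alone gives at this depth. The ketogenic mice varied by 14.9%, against 6.76% from counting. The control mice thus differed by less than counting alone gives on average, and the ketogenic mice by more.

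Lrrc2 measured 8.82, 9.10, 8.72, 9.87 and 11.8 CPM in control mice 1 to 5. It measured 17.7, 18.4, 20.2, 19.7 and 18.3 CPM in ketogenic mice 1 to 5. Control mouse 5 was the highest of its group and still below every ketogenic mouse. The means were 9.65 ± 1.26 CPM and 18.9 ± 1.03 CPM (SD, n = 5 each), with a log2 fold change of 0.97 and a standard error of 0.102. For Lrrc2 the ketogenic mice were the tighter group, with a coefficient of variation of 5.43% against 13.1% on the control diet. Counting alone gives 6.67% and 9.54%, so the ketogenic mice differed by less than counting gives on average. Lrrc39 and Lrrc2 were close in reads per mouse, and the ratio of their CPM, 0.669 to 0.937 on the control diet and 0.815 to 1.11 on the ketogenic diet, overlapped between the groups.

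Tmem182 was the most abundant of the 5 genes, with 76.4, 69.5, 69.0, 59.9 and 81.3 CPM in control mice 1 to 5 and 119, 116, 135, 141 and 155 CPM in ketogenic mice 1 to 5. The groups were again apart. The means were 71.2 ± 8.13 CPM and 133 ± 16.2 CPM (SD, n = 5 each), with a log2 fold change of 0.91 and a standard error of 0.0944. Both groups varied by about the same share, 11.4% and 12.1%, against 3.51% and 2.50% from counting. With 662 to 1983 reads per mouse, counting is a minor part of the spread of Tmem182. Its reads per exonic base ran from 0.244 to 0.73, and after a correction for read start positions already in use the log2 fold change was 1.03.

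Lrrc10 measured 1.95, 1.56, 2.05, 0.996 and 2.68 CPM in control mice 1 to 5 and 1.44, 1.26, 2.19, 3.17 and 1.18 CPM in ketogenic mice 1 to 5. The groups overlapped over nearly their whole range, although ketogenic mouse 4 was the highest of all. The log2 fold change was 0.00 with a standard error of 0.337, which spans folds of 0.793 to 1.26 at 1 standard error on either side. Only 11 to 38 reads per mouse lay on Lrrc10. With 1 mouse left out at a time, the value ran from −0.28 without ketogenic mouse 4 to 0.18 without control mouse 5.

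Trmt13, the transfer RNA methylase, measured 30.0, 26.5, 23.9, 26.3 and 25.1 CPM in control mice 1 to 5 and 20.5, 24.6, 20.6, 24.7 and 24.2 CPM in ketogenic mice 1 to 5. Ketogenic mice 1 and 3 were below every control mouse, and the other 3 lay within the control range. The log2 fold change was −0.20 with a standard error of 0.0903, on 242 to 323 reads per mouse.

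**Figure D1:**
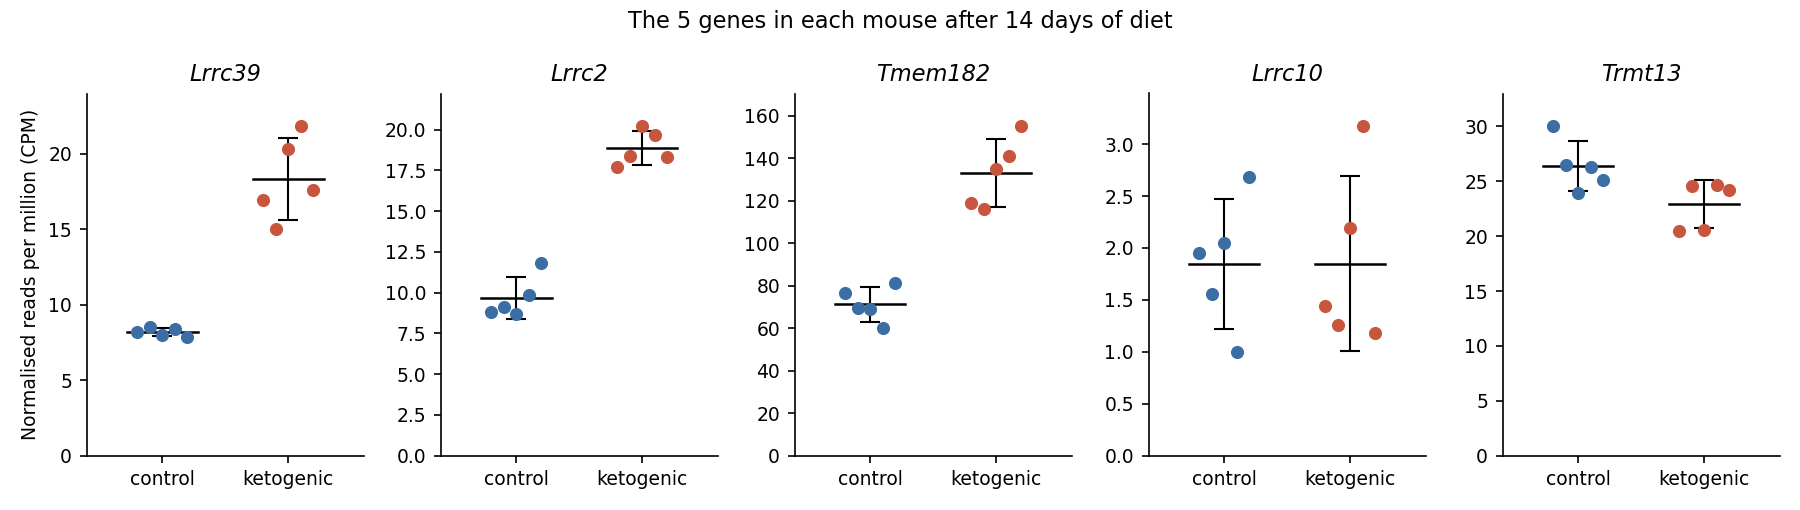
Normalised read count (CPM, y axis from 0) of the 5 genes in each of 5 control and 5 ketogenic mice; points are mice, the line is the mean and the bar 1 SD. For Lrrc39, Lrrc2 and Tmem182 every ketogenic mouse lies above every control mouse, whereas Lrrc10 and Trmt13 overlap.

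Per length of exon, the order of the levels on the control diet was Tmem182 at 26.2 ± 2.99 RPKM, Trmt13 at 4.30 ± 0.375, Lrrc2 at 2.57 ± 0.335, Lrrc39 at 1.57 ± 0.0523 and Lrrc10 at 1.29 ± 0.437 RPKM (SD, n = 5 each). Among these, the ranges of Lrrc39 and Lrrc10 overlapped in control mice (1.51 to 1.63 against 0.697 to 1.88 RPKM), while the other neighbours in the order did not overlap. On the ketogenic diet Lrrc2, at 5.02 ± 0.273 RPKM, stood above Trmt13, at 3.74 ± 0.355 RPKM. Lrrc39, at 3.51 ± 0.522 RPKM, then overlapped Trmt13. Tmem182 was at 49.1 ± 5.95 RPKM and Lrrc10 at 1.30 ± 0.591 RPKM. Over all tested genes, the mean level of Tmem182 was at the 87.6th percentile, that of Trmt13 at the 39.0th, Lrrc2 at the 37.6th, Lrrc39 at the 29.5th and Lrrc10 at the 18.3rd. Tmem182 was therefore far above the 3 leucine-rich repeat genes in these cells. In the deposited RPKM values Lrrc39 was lower, at 1.37 ± 0.0452 on the control diet, and Trmt13 was at 2.28 ± 0.193. The length used there for Trmt13 was 11501 bases, whereas its exons cover 6134 bases once overlaps are merged.

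Lrrc39 and Trmt13 share 2042 bases of chromosome 3 at their ends, 820 of them in exons of both. This is 15.7% of the exon bases of Lrrc39 and 13.4% of those of Trmt13. Because the kit does not mark the strand, reads from the shared bases cannot be told apart. The sources used here do not say how such reads were counted. The RPKM values divide by all exon bases, including the shared ones. The CPM of the 2 genes pointed in opposite directions between the diets, and the ratio of Lrrc39 to Trmt13 was 0.272 to 0.336 on the control diet and 0.609 to 0.988 on the ketogenic diet. Their sum was 31.9 to 38.2 CPM and 37.4 to 46.5 CPM. A further gene of uncertain coding status, Gm42940, lies within Lrrc39 on the other strand and covers 1050 of its exon bases, or 20.1%. It held 198 reads over all 10 mice, against 1559 on Lrrc39. Trmt13 also shares 389 exon bases with Sass6, 6.34% of its own. Tmem182 and Lrrc10 overlap no annotated gene, and Lrrc2 shares only intronic bases with Gm43535, which had no reads.

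The genes next to the muscle genes were examined to see whether the difference extended along the chromosome. Of the 15 tested neighbours other than Trmt13, edgeR called none, 2 had an unadjusted p under 0.05 and DESeq2 called none. The shares over all tested genes were 1.34%, 17.8% and 5.3%, so these counts do not set the neighbours apart from other genes. Their log2 fold changes ran from −0.43 to 0.46, and the lowest adjusted p was 0.156 from edgeR. Rtp3 starts 868 bases beyond the end of Lrrc2 and differed by 0.22 on the log2 scale (standard error 0.0872, edgeR adjusted p = 0.215), against 0.97 for Lrrc2. Als2cl, on the other side of Lrrc2, had −0.10 (standard error 0.0533). Gm9761, 1546 bases before Lrrc39, had 0.00 (standard error 0.0975), and Dbt, a subunit gene of the branched-chain ketoacid dehydrogenase, had −0.09 (standard error 0.104). Cct2, a chaperonin subunit gene 4232 bases from Lrrc10, was at 213 ± 6.61 CPM on the control diet and 213 ± 1.88 CPM on the ketogenic diet. Mfsd9, 14913 bases before Tmem182, had −0.03 with a standard error of 0.364. On the other side of Tmem182 the nearest tested gene, Mrps9, was 1994345 bases away and had a value of 0.01 (standard error 0.0493).

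**Figure D2:**
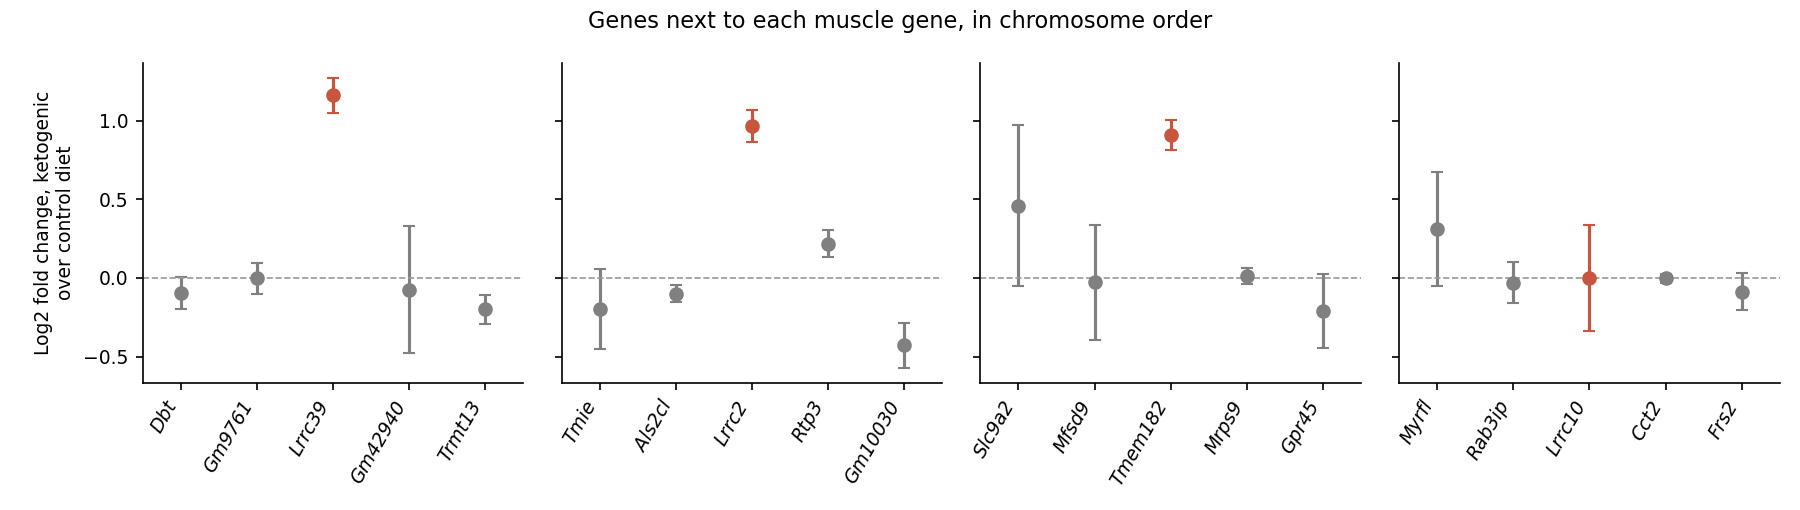
Log2 fold change, ketogenic over control diet, of each muscle gene (red) and of the 2 nearest tested genes on each side (grey), in chromosome order and not to distance; bars are 1 standard error. The neighbours lie between −0.43 and 0.46, and Lrrc39, Lrrc2 and Tmem182 stand above theirs, with no test of that difference.

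The 4 muscle genes are known from striated muscle, so the level of cardiomyocyte RNA in each sample was set beside them. The 12 cardiomyocyte markers, which include contractile proteins and the calcium handling proteins Pln and Ryr2, were all detected and none was at 0. Csrp3, a Z-disc protein gene, rose (log2 fold change 0.70, standard error 0.147, edgeR adjusted p = 0.0434). It was called in 2 of 10 fits that left out 1 mouse, those without control mouse 3 and without ketogenic mouse 2. The other 11 did not pass, although 9 of the 12 had an unadjusted p under 0.05, all higher on the ketogenic diet, beside 17.8% of all tested genes in either direction and 8.57% higher. Their median log2 fold change was 0.31, against −0.01 over all tested genes. DESeq2 called 6 of the 12, beside 5.3% of all genes, and limma called 2, beside 1.52%. The summed level of the 12 was 653, 630, 796, 711 and 707 CPM in control mice 1 to 5 and 727, 850, 993, 907 and 826 CPM in ketogenic mice 1 to 5. The groups overlapped, with 4 of 5 ketogenic mice above every control mouse. In bulk samples such as these, a change in the number of cells of a type and a change in RNA per cell cannot be told apart.

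The levels of the 5 genes relative to the marker reads of the same mouse are given as values only, since the genes were chosen on the difference between the diets. The marker sum is also limited by how reads were counted. No gene over 300 exonic bases held more than 2.1 reads per exonic base, a ceiling that can narrow differences of densely covered genes, and the markers reached up to 1.13 reads per exonic base for Actc1, 0.814 for Mb and 0.81 for Pln. The 5 sparsely covered markers had log2 fold changes of 0.77 for Ryr2, 0.70 for Csrp3, 0.55 for Myh6, 0.10 for Tnnt2 and −0.49 for Nppa. Per 1000 marker reads, Lrrc39 was 10.1 to 13.5 on the control diet and 17.7 to 24.0 on the ketogenic diet. Lrrc2 was at most 16.6 on the control diet and 20.3 to 24.4 on the ketogenic diet, and Tmem182 was 84.2 to 117 and 136 to 188. Lrrc10 overlapped, at 1.40 to 3.79 and 1.42 to 3.50 per 1000 marker reads. Trmt13 was 29.9 to 45.9 and 20.7 to 29.3, without overlap, although its own CPM overlapped. The mean marker sum was 699 CPM on the control diet and 861 CPM on the ketogenic diet, which lowers this ratio for a gene that does not change. The share of all genes without overlap on such a ratio was not computed. When each mouse's mean z-score of the markers entered the edgeR fit as a covariate, the log2 fold change was 1.06 for Lrrc39, 0.88 for Lrrc2 and 0.88 for Tmem182. It was −0.44 for Lrrc10 and −0.15 for Trmt13. With a score from only the 5 markers below 0.2 reads per exonic base, chosen after seeing the data, the values were 1.09, 0.92 and 0.91 for Lrrc39, Lrrc2 and Tmem182 and −0.29 for Lrrc10. Among mice of 1 diet, correlations were taken with the score from all 12 markers (Pearson, deviations from the diet means). They were 0.31 for Lrrc39, 0.33 for Lrrc2, 0.07 for Tmem182, 0.39 for Lrrc10 and −0.19 for Trmt13. Each of the 10 mice supplied both measures from 1 library.

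**Figure D3:**
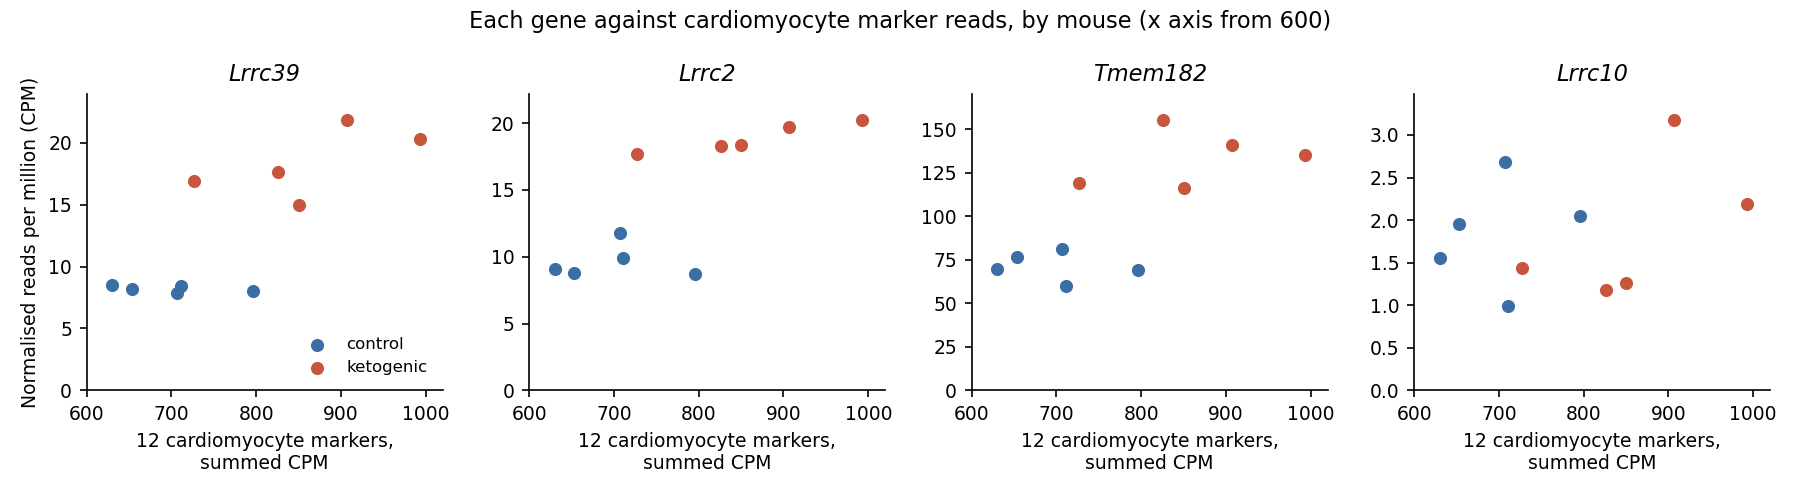
CPM of 4 muscle genes (y axis from 0) against the summed CPM of 12 cardiomyocyte markers (x axis starting at 600) in each mouse, blue for control and red for ketogenic diet. The marker sum overlaps between the diets, with 630 to 796 CPM in control and 727 to 993 CPM in ketogenic mice, while Lrrc39, Lrrc2 and Tmem182 do not overlap and Lrrc10 does.

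Ttn, the giant protein gene that spans the sarcomere to the M-band, was chosen for this comparison after its values were seen. It was at 53.1 ± 15.6 CPM on the control diet and 108 ± 36.1 CPM on the ketogenic diet (SD, n = 5 each), that is, 1.03 on the log2 scale (standard error 0.242, edgeR adjusted p = 0.0605). Divided by Ttn, Lrrc39 was 0.114 to 0.224 on the control diet and 0.141 to 0.242 on the ketogenic diet. Lrrc2 was 0.133 to 0.239 and 0.127 to 0.254, and Tmem182 was 0.808 to 2.06 and 0.910 to 1.97. All 3 ratios overlapped between the diets, but Ttn was chosen with a difference of similar size known, so this overlap is no test. These ratios and the covariate fit are values only. The part of cardiomyocyte RNA in the difference of the 3 genes was not tested.

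Genes of the M-band and the Z-disc had medians above 0 and no calls in edgeR. Over all tested genes, 17.8% had an unadjusted p under 0.05, and 8.57% had one and were higher on the ketogenic diet. The share called was 1.34% for edgeR, 5.3% for DESeq2 and 1.52% for limma. Of 13 tested M-band and titin genes, edgeR called none, 6 had an unadjusted p under 0.05, all higher on the ketogenic diet, DESeq2 called 5 and limma none. Their median log2 fold change was 0.41. The most abundant per length were Fhl2, a LIM domain protein gene, at 0.29 (standard error 0.121, edgeR adjusted p = 0.227), and Ckm, the muscle creatine kinase gene, at 0.41 (standard error 0.143, edgeR adjusted p = 0.163). Of 15 tested Z-disc genes, edgeR called none, 8 had an unadjusted p under 0.05, all higher, DESeq2 called 4 and limma none, with a median of 0.42. Cryab, a small heat shock protein gene, and Pdlim5, which binds alpha-actinin, were the most abundant. Their log2 fold changes were −0.03 and −0.04 (standard errors 0.0445 and 0.0499). Cryab reached 0.956 reads per exonic base, so the ceiling described above could narrow its difference. Within both lists the values spread widely, from −0.11 to 1.03 and from −0.13 to 1.21. The highest value of each list was above those of Lrrc2 and Tmem182, 0.97 and 0.91.

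Genes of the dyad, where the T-tubule meets the calcium store, were listed because Lrrc10 is found there. Of 12 tested, edgeR called none, and 4 had an unadjusted p under 0.05, 3 higher and 1 lower, beside 17.8% of all tested genes. DESeq2 called 2, beside 5.3% of all genes, and limma none. The median log2 fold change of the list was 0.13, with values from −0.36 to 0.53. Casq2, the calcium-binding protein of the store, had −0.07 (standard error 0.0355), and Atp2a2, the calcium pump, had 0.13 (standard error 0.0480, edgeR adjusted p = 0.188). Casq2 reached 1.33 reads per exonic base, so the ceiling described above could narrow its difference. The value for Lrrc10 was 0.00.

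A list of muscle gene regulators, which holds factors for several of the searched motifs but no PPAR receptor, was measured as well. Of 16 tested, edgeR called none, and 3 had an unadjusted p under 0.05, 1 higher and 2 lower, beside 17.8% of all tested genes. DESeq2 called 1, Tbx5, beside 5.3% of all genes, and limma none. Tbx5 was at 9.01 ± 3.25 CPM on the control diet and 3.87 ± 1.49 CPM on the ketogenic diet. Its log2 fold change was −1.22 (standard error 0.311, edgeR adjusted p = 0.0759). The median log2 fold change of the list was 0.03, with values from −1.22 for Tbx5 to 0.52 for Ppargc1a. Mef2c, the most abundant per length, was at 514 ± 15.8 CPM on the control diet and 527 ± 25.1 CPM on the ketogenic diet, a difference of 0.04 on the log2 scale (standard error 0.0361). Mrtfb, a coactivator of Srf, had −0.12 (standard error 0.0474, edgeR adjusted p = 0.201). Esrrb, Esrrg and Nkx2-5 had too few reads to be tested.

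Among skeletal muscle genes, only the alpha-actin gene Acta1, which heart muscle also uses, passed the test. It rose from 15.5 ± 5.62 to 45.8 ± 20.1 CPM, by 1.56 on the log2 scale (standard error 0.292, edgeR adjusted p = 0.0275), and was not called in 4 of 10 fits that left out 1 mouse or with the cardiomyocyte score as a covariate (log2 fold change 1.11, edgeR adjusted p = 0.255). Only 4 of 13 listed genes were tested, and Myod1, the master regulator of skeletal muscle, had no reads in any mouse. All 6 adipocyte markers were below the filter. Fibroblast, mural and erythroid markers had no calls, with 0 of 6, 0 of 8 and 0 of 5 in edgeR, DESeq2 and limma, and no gene of the 3 lists had an unadjusted p under 0.05. Several of these genes had almost the same number of reads in every mouse, 7457 to 7691 for Rgs5, 439 to 465 for Hbb-bs and 97 to 98 for Hba-a1, so that their counts could show little change. Of 6 tested macrophage markers none was called by edgeR, DESeq2 or limma. An unadjusted p under 0.05 was found for 4, all lower, beside 17.8% of all tested genes in either direction. Of 6 lymphocyte markers, Cd79a fell by 0.46 on the log2 scale (standard error 0.0825, edgeR adjusted p = 0.0221), and was called in 5 of 10 fits that left out 1 mouse. Of the 12 endothelial markers edgeR, DESeq2 and limma called none. The median of the 12 was −0.06, and 3 of them had an unadjusted p under 0.05, beside 17.8% of all tested genes. The same limit holds for them, with 7356 to 7571 reads per mouse on Cdh5 at up to 1.8 reads per exonic base, and the lack of calls does not show that they were alike.

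**Figure D4:**
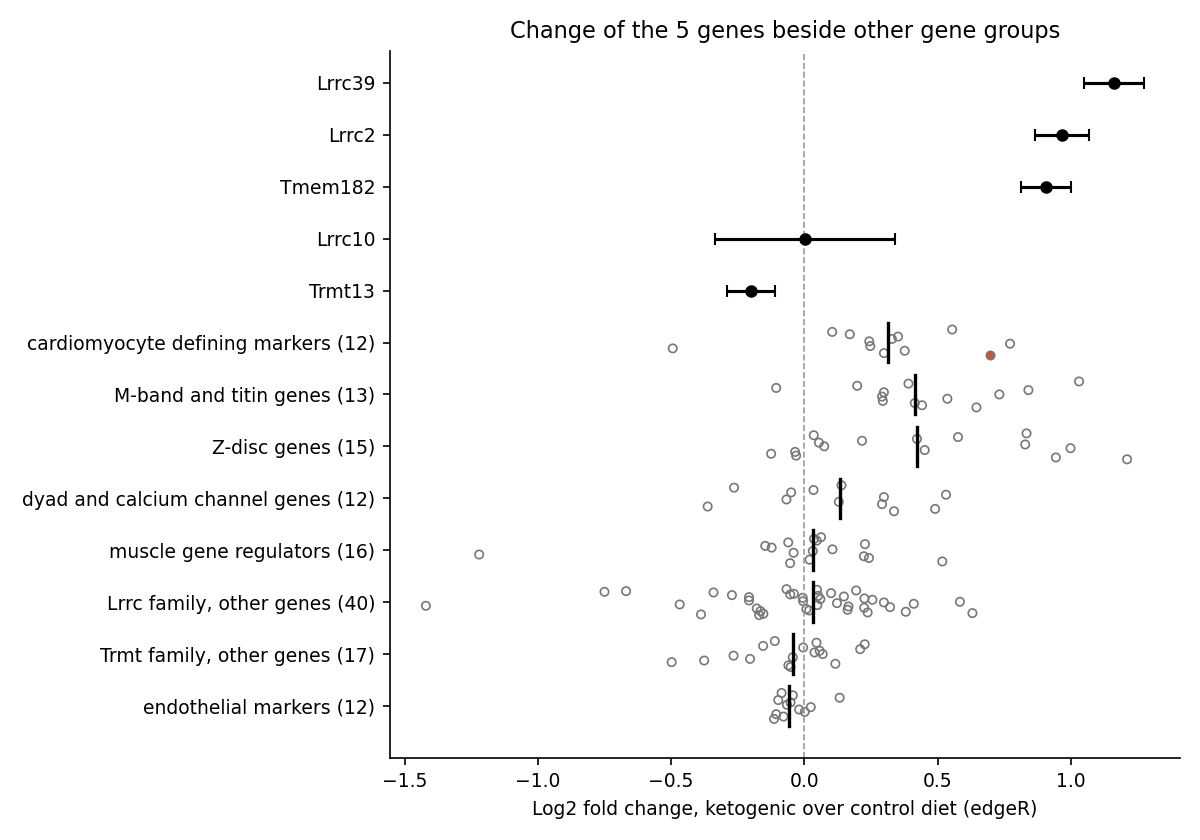
Log2 fold change, ketogenic over control diet, of the 5 genes (black points, bars 1 standard error) and of each tested gene of 8 other groups (open circles, filled red where edgeR's adjusted p was under 0.05; vertical bars are medians, number of genes in brackets). The medians of the cardiomyocyte, M-band and Z-disc groups are 0.31, 0.41 and 0.42, and that of endothelial markers is −0.06. The highest genes of the cardiomyocyte, M-band and Z-disc groups are at 0.77, 1.03 and 1.21. Lrrc39, Lrrc2 and Tmem182, which were chosen on this difference, are at 1.16, 0.97 and 0.91.

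Of the other genes named Lrrc, apart from the 3 described above, 40 of 66 had enough reads, and edgeR called none of the 40. An unadjusted p under 0.05 was found for 9, 4 higher and 5 lower, beside 17.8% of all tested genes, and the median log2 fold change was 0.03. DESeq2 called 2 of the 40, beside 5.3% of all genes, and limma none. The most abundant per length were Lrrc32, a surface protein that holds latent transforming growth factor beta, at 57.4 RPKM and Lrrc57 at 46.6 RPKM. Lrrc32 was at 285 ± 12.3 CPM on the control diet and 253 ± 12.6 CPM on the ketogenic diet (log2 fold change −0.17, standard error 0.0420, edgeR adjusted p = 0.0698). The value for Lrrc57 was 0.10 (standard error 0.0502, edgeR adjusted p = 0.322). Of the 17 tested Trmt genes other than Trmt13, edgeR, DESeq2 and limma called none, and their median was −0.04. An unadjusted p under 0.05 was found for 4 of the 17, 1 higher and 3 lower, beside the same 17.8% of all tested genes. Trmt112-ps2, a pseudogene whose reads cannot be separated with certainty from those of Trmt112, and Trmt2a were the most abundant, at 27.6 and 22.0 RPKM. Their log2 fold changes were −0.06 (standard error 0.0872) and −0.16 (standard error 0.0737).

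Likeness among mice of 1 diet does not use the difference that chose the genes. It was measured as Pearson's correlation of log2 CPM over 10 mice after the mean of each diet was taken off. All pairs share the library of each mouse, and no p is attached. Lrrc39 and Lrrc2 had a correlation of 0.23, Lrrc39 and Tmem182 0.31, and Lrrc2 and Tmem182 0.33. Each was more alike to Lrrc10, at 0.54 for Lrrc39, 0.43 for Lrrc2 and 0.54 for Tmem182, although Lrrc10 rests on few reads. Counting also limits the correlations of Lrrc39 and Lrrc2, whose spread within 1 of the diets was below that from counting alone. Trmt13 had −0.02 with its overlapping neighbour Lrrc39. Of all tested genes, 2.5% had a correlation above 0.691 with Lrrc39, 0.657 with Lrrc2 and 0.678 with Tmem182, so that the 3 genes were not among each other's most alike.

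The 10 genes with the highest mean correlation to Lrrc39, Lrrc2 and Tmem182 were Pcdhgc3 (0.69), Utp4 (0.68), L3mbtl2 (0.68), Cdpf1 (0.67), Lrmda (0.67), Gpatch2 (0.67), Gemin6 (0.66), Gm13503 (0.66), Calhm2 (0.66) and Slc30a7 (0.66). With 1 mouse left out, between 1 and 8 of the 10 stayed among the 10. None of them is in the muscle lists, and edgeR called none of them between the diets. Their log2 fold changes lay near 0, for example −0.02 for Utp4, a protein of ribosome assembly, and 0.01 for Slc30a7, a zinc transporter. M-band and titin genes had a median correlation of 0.33 with Lrrc39, 0.31 with Lrrc2 and 0.16 with Tmem182, and cardiomyocyte markers 0.30, 0.27 and 0.07. Over all tested genes the medians were near 0.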

How the data were processed

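RNA sequencing of CD31+ heart cells from 5 control and 5 ketogenic mice was analysed from the deposited gene tables, in which the authors gave raw counts of 50 bp single reads per gene without normalization. Per the submitters' processing notes, bcl2fastq 2.17.1.14, STAR 2.3, HTSeq 0.6.0 and mm10 were used, and the paper's methods name DESeq2. The annotation release, strand setting and removal of duplicates are not given in the sources used here. No gene above 300 exonic bases held over 2.1 reads per exonic base, close to the 2 start positions per base that both strands offer. Beside the counts the authors deposited RPKM values, which for many genes use a length that counts overlapping exons repeatedly. RPKM over merged GENCODE M21 exons on GRCm38 was therefore computed for levels.

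Samples were grouped by the diet in the labels. Nothing in the labels says that the mice were handled in batches. Counts were normalized by TMM, filtered by filterByExpr and fitted with edgeR 4.0.16 (quasi-likelihood F-test, R 4.3.3), with Benjamini-Hochberg adjustment over 15949 genes and a threshold of 0.05. Standard errors are the log2 fold change over the square root of F. Log2 CPM for correlations used a prior count of 2. The fit was tested on simulated data. Replicate numbers did not pair the mice: same-numbered mice had correlations of −0.134 to 0.0936 in their deviations from the diet means, and 0 of 5 were most alike to their own number.

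The members and gene lists were chosen with earlier results of these data known, so no test is given for the 5 genes. Named besides them are the 10 genes most alike within a diet; for each list its called genes up to 4 by smallest p, or else the 2 with the highest mean level; in the Lrrc and Trmt families the called genes and the 2 highest by RPKM; and the 2 nearest tested genes on each side of the muscle genes. Ttn was chosen after its values were seen, as were Tbx5 and Ppargc1a. The same holds for the overlapping genes Sass6 and Gm43535 and the untested or undetected genes named within lists. All 5 genes matched RefSeq promoters, of which 4 are printed, and sequences of proteins were not used here. Alternatives were DESeq2 1.42.0 and its size factors, upper quartile factors, library size alone, other filters, limma 3.58.1 (log2 RPKM, addend 1 or 0.1), the replicate block, a cardiomyocyte score as covariate, each mouse left out, a prior count of 0.5 and Spearman's correlation. A correction for read start positions and a score from 5 sparsely covered markers were added after seeing the data.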

Additional observations from a re-analysis of the deposited data

Results flagged for a closer look

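For the 5 genes, the summed cardiomyocyte markers and each gene over those markers, the mouse farthest from the others of its diet was set against the range of its group. The distance to the next mouse as a share of that range exceeded Dixon's critical value of 0.71 in 1 of 22 groups, and chance gives about 1 in 20. This was Trmt13 over the cardiomyocyte markers, where ketogenic mouse 3 was lowest, at 20.7 reads per 1000 marker reads against 27.3 to 29.3 in the other ketogenic mice, a ratio of 0.759. The same mouse had the highest marker sum, 993 CPM, and a Trmt13 level of 20.6 CPM, close to the 20.5 CPM of ketogenic mouse 1.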

How the results depend on the processing

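Over 364 recomputed values none reversed its direction where the direction was called. Over alternatives other than leaving out a mouse, the log2 fold change ran from 0.78 to 1.17 for Lrrc39, 0.73 to 0.98 for Lrrc2, 0.88 to 1.03 for Tmem182, −0.44 to 0.01 for Lrrc10 and −0.21 to −0.13 for Trmt13. The lowest values of Lrrc39 and Lrrc2, 0.78 and 0.73, came from limma on log2(RPKM + 1), a scale that understates the change of low genes. With each mouse left out the ranges were 1.09 to 1.22, 0.93 to 1.05, 0.85 to 0.96, −0.28 to 0.18 and −0.23 to −0.15. The count of genes called over the whole table, 213, was 806 with DESeq2, 23 with the cardiomyocyte score as a covariate and 82 with the score from sparsely covered markers. It ran from 86 without control mouse 2 to 492 without ketogenic mouse 2. With the replicate block, 113 genes were called over the table, 2 cardiomyocyte markers (Myh6 and Csrp3), 1 M-band gene and 1 Z-disc gene, Acta1 and Cd79a were not called (adjusted p = 0.0705 and 0.0541 from edgeR), and Lrrc39, Lrrc2 and Tmem182 had 1.15, 0.97 and 0.90.

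DESeq2 called 6 cardiomyocyte markers, 5 M-band, 4 Z-disc and 2 dyad genes, 1 regulator and 4 Lrrc genes. The counts for the Lrrc family include Lrrc39 and Lrrc2, which were chosen on this difference, and are no test of those 2 genes. Without a filter 2 cardiomyocyte markers, 1 M-band and 3 Z-disc genes were called. A filter of 10 counts in every mouse gave 1 M-band and 1 Z-disc gene, and library size alone gave 1 M-band gene. Limma with either addend called 2 cardiomyocyte markers, as did the read start correction, which also called 1 Z-disc gene. Either cardiomyocyte score left 0 cardiomyocyte markers called. This is no result about the markers, because both scores were built from them. The sparse score gave 1 regulator, Tbx5, lower. With a mouse left out, 0 to 1 cardiomyocyte markers, 0 to 2 M-band, 0 to 2 Z-disc and 2 to 3 Lrrc genes were called. Of the 10 genes most alike within a diet, 4 remained with Spearman's correlation, and from 1 without ketogenic mouse 2 to 8 without ketogenic mouse 5. The cause of these differences was not tested. Depth limits Lrrc10, with 11 to 38 reads per mouse.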
